A study of Mus musculus with 8 samples.

Results

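The response of wild-type (IPO13+/+) mouse embryonic stem cells (mESCs) to hydrogen peroxide (H2O2) was described from RNA sequencing (RNA-seq) of polyadenylated RNA. The 4 libraries with the wild-type label were taken out of the 8 libraries of the study, which were 2 untreated libraries and 2 libraries of cells given 125 µM H2O2 for 1 h and left for 2 h in fresh medium. The study set these beside 4 libraries of IPO13-/- cells, in which *Ipo13* was targeted, the gene of a nuclear transport receptor, to ask which transcriptional changes under oxidative stress depend on it. All cells had a mixed 129 x C57BL/6 background, came from blastocysts at day 5 of preimplantation development, and were grown without feeder cells on gelatin in serum with leukaemia inhibitory factor (LIF). The sources used here do not say whether the 2 libraries of a group came from separate cultures. The p-values therefore measure the spread between libraries only, estimated over all 8 libraries together. This spread differed by group. Against counting noise, the chi-square per gene was 15.02 in the untreated and 2.265 in the treated IPO13+/+ pair. It was 4.585 and 6.589 in the untreated and treated IPO13-/- pairs.

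Each IPO13+/+ library held between 68052299 and 72021098 reads counted on genes, and 3 counts, taken as the lowest level told from 0, came to 0.0417 to 0.0441 CPM, the count scaled to a fixed library size. All 8 of 8 embryonic stem cell markers were above 1 CPM, and their summed level was 6452 to 6778 CPM without and 6315 to 6338 CPM with treatment. The summed level of 8 fibroblast or feeder markers was 7.72 to 7.79 CPM and 8.74 to 9.44 CPM, with *Fap* at 0, and that of 4 blood markers stayed at or below 1.01 CPM. Markers of primitive endoderm summed to 20.3 to 22.4 CPM without and 15.8 to 16.7 CPM with treatment, those of trophectoderm to 22.3 to 25.9 and 18.6 to 19.8 CPM, those of mesoderm to 4.83 to 5.19 and 3.56 to 3.66 CPM, and those of neural cells to 131.2 to 135.5 and 114.1 to 116.8 CPM. Their part in the results was not tested, and in bulk RNA fewer cells of a type and less RNA per cell cannot be told apart. *Ipo13* itself stood at 70.3 and 68.3 CPM without and 72.4 and 69.3 CPM with treatment in IPO13+/+ cells (false discovery rate, FDR, of 0.68 in edgeR's quasi-likelihood test), and at 24.9 to 26.0 CPM in the 4 IPO13-/- libraries.

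H2O2 is a by-product of respiration that oxidises cysteine residues, iron centres and DNA. Cells answer it along several routes: the factor NRF2 switches on enzymes of thiol reduction and detoxification, stress kinases act through the AP-1 factors of the FOS and JUN families, damaged DNA stabilises the factor p53, and the factors HSF1 and ATF4 answer unfolded proteins and a block in translation. mESCs are held in the naive pluripotent state by a network of factors around OCT4, SOX2 and NANOG, divide rapidly, and have a short G1 phase.

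Of 19424 genes tested with edgeR's quasi-likelihood test, 2229 (11.5%) were higher and 2679 (13.8%) were lower after H2O2 at an FDR under 0.05. The median log2 fold change of all tested genes was -0.0011. A change of at least 2-fold was found for 535 higher genes (2.75%) and 29 lower genes (0.149%), so the large changes were nearly all rises. The picture turned among the 8595 well-expressed genes, those with a mean of at least 10 CPM over the 4 libraries, of which 1149 (13.4%) were higher and 2166 (25.2%) lower. Only 70 of these rises (0.814%) and 2 of these falls (0.0233%) reached 2-fold, while 1079 well-expressed genes (12.6%) rose and 2164 (25.2%) fell by less. The median log2 fold change of the well-expressed genes was -0.049. The mean over 4 libraries lets in genes that are low in one group, and 20 of the 70 rises (28.6%) were below 10 CPM in the untreated mean, as were 69 of the 1149 (6.01%). The plot of the change against the level shows the large rises at the low end and the dense band of small falls at the high end.

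**Figure D1:**
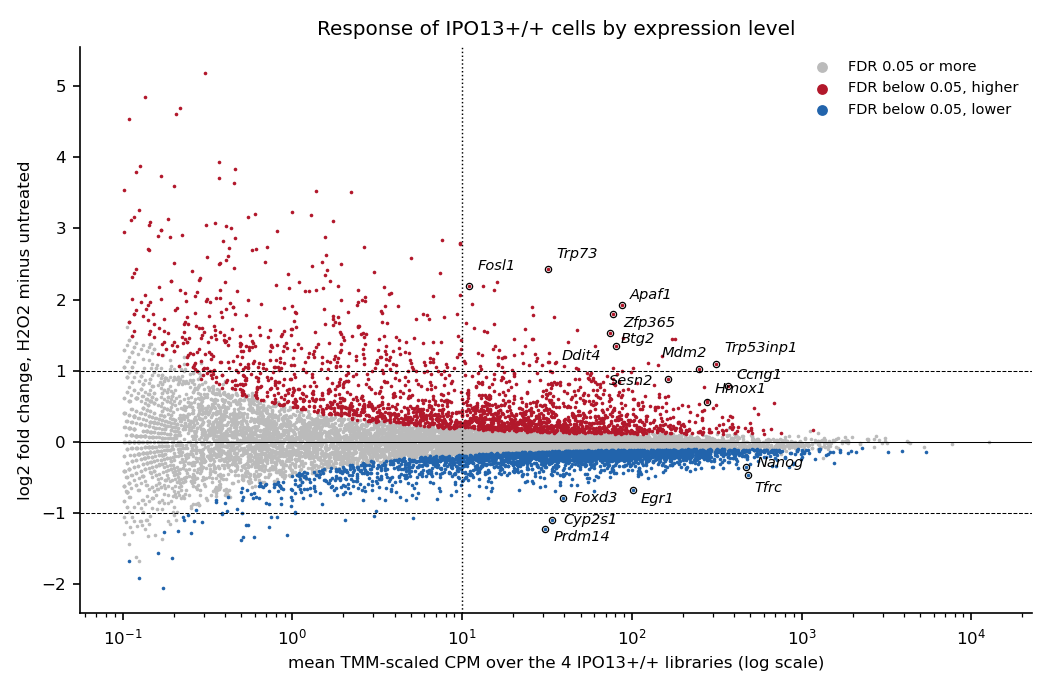
Log2 fold change after H2O2 (vertical axis) against the mean level over the 4 IPO13+/+ libraries in CPM (horizontal axis, log scale), 1 point per gene with a mean of at least 0.1 CPM. Colours mark genes higher or lower at FDR under 0.05, dashed lines mark a 2-fold change and the dotted line marks 10 CPM; of the well-expressed genes to its right, 70 rose and 2 fell by 2-fold or more.

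The balance of small rises and falls depended on the scaling and on single libraries. With library totals in place of TMM factors, which scale libraries to a common bulk of genes, 2646 genes were higher and 1731 lower, so the share of calls that were rises went from 45.4% to 60.5%, and among well-expressed genes under 2-fold the counts became 1359 and 1352. Without H2O2 library 1 the count of lower genes was 1365, without H2O2 library 2 it was 1487, and with only the 4 IPO13+/+ libraries in the fit it was 1229. When the change itself had to exceed 1.2-fold, 975 genes were higher and 239 lower. The log2 fold change of a gene was higher with library totals by a median of 0.04. Many of the small falls described below are therefore given with counts under some of these settings. A fall printed without such counts is not thereby shown to be stable.

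Of the 12 well-expressed genes with the largest rises, *Apaf1* and *Zfp365* are on the p53 target list, and *Trp73* and *Ptprv* are known to be induced by p53. *Trp73* (chr4:154056253-154140208, minus strand, GRCm38), which codes for the p53 relative p73, was at 10.2 and 9.89 CPM in the untreated and at 55.1 and 53.7 CPM in the treated libraries. Its log2 fold change of 2.43 (standard error, SE, 0.06, FDR = 1.3e-21) was the largest among well-expressed genes. *Ptprv*, a receptor phosphatase gene, went from 6.01 and 5.17 CPM to 26.6 and 26.5 CPM, a log2 fold change of 2.25 (SE 0.08, FDR = 2.8e-18). *Apaf1* (chr10:90989311-91082770, minus strand), whose product assembles the apoptosome, had 37.9 and 35.1 CPM without and 136 and 141 CPM with treatment. It rose by 1.92 on the log2 scale (SE 0.05, FDR = 7.5e-21), and its treated and untreated libraries lay far apart with little difference within each pair. *Zfp365*, which codes for a zinc finger protein of genome maintenance, rose from 34.6 and 34.6 CPM to 119.6 and 120.3 CPM (log2 fold change 1.79, SE 0.05, FDR = 7.5e-21). *Ddit4l*, an inhibitor of mTOR signalling, went from 17.2 and 14.8 CPM to 52.8 and 55.3 CPM (log2 fold change 1.76).

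Membrane, lysosomal and transcription factor genes made up the others, beside *Fosl1*, which is described with the AP-1 family. *Scn3b*, a sodium channel subunit gene, rose from 4.67 and 4.9 CPM to 21.3 and 22.4 CPM (log2 fold change 2.19). *Igdcc4*, coding for an immunoglobulin superfamily membrane protein, went from 5.68 and 5.72 CPM to 25 and 25.3 CPM (log2 fold change 2.14). *Hyal1*, a lysosomal hyaluronidase gene, rose by 1.94, *1700007K13Rik* by 1.89, the calcium sensor gene *Hpcal1* by 1.78 and *Creb3l1*, which codes for a membrane-bound transcription factor, by 1.67 on the log2 scale. *Ptprv*, *Scn3b*, *Igdcc4*, *Hyal1*, *Creb3l1* and *Fosl1* were below 10 CPM without treatment and reached the mean of 10 CPM through the treated libraries.

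Of the 44 tested genes on the p53 target list, 35 rose (79.5%, against 11.5% of all genes) and 2 fell, with a median log2 fold change of 0.59. The count of rises stayed between 32 and 35 when any 1 library was left out and was 28 when the change had to exceed 1.2-fold. The gene of p53 itself, *Trp53*, is controlled mainly at the protein level and was at 429 and 407 CPM without and 405 and 393 CPM with treatment (log2 fold change -0.07, FDR = 0.26). Most genes of its negative regulators were higher. *Mdm2* (chr10:117688875-117710758, minus strand), coding for the ubiquitin ligase that degrades p53, rose from 173 and 156 CPM to 329.8 and 338 CPM (log2 fold change 1.02, SE 0.05, FDR = 8e-16). *Ccng1*, whose cyclin acts with a phosphatase on MDM2, rose from 277 and 264 CPM to 463 and 473 CPM (log2 fold change 0.79). In all, 5 of the 7 genes of p53 and its feedback rose, and *Rfwd2*, which codes for another p53 ubiquitin ligase, fell by 0.18, a call lost without H2O2 library 1.

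All 8 genes of cell cycle arrest on that list rose. *Cdkn1a* (chr17:29090976-29100727, plus strand), coding for the cyclin-dependent kinase inhibitor p21, was at 45.2 and 45 CPM without and 79.6 and 78.6 CPM with treatment. Its rise of 0.81 (SE 0.05, FDR = 2e-13) was smaller than that of *Btg2*, an antiproliferative transcript regulator gene that went from 38.8 and 38 CPM to 109 and 113 CPM (log2 fold change 1.53, FDR = 3.3e-19), and than that of the polo-like kinase gene *Plk2*, at 49.3 and 45.6 CPM and 129 and 131 CPM (log2 fold change 1.46, FDR = 8.3e-19), although these differences between genes were not tested. Of 14 genes of cell death, 13 rose, the exception being *Bcl2l11* (log2 fold change 0.14, FDR = 0.051). *Bbc3*, the gene of the BH3-only protein PUMA, went from 25.7 and 26.3 CPM to 47.8 and 44.4 CPM (log2 fold change 0.83). *Perp*, an apoptosis effector gene of the plasma membrane, went from 65.1 and 68.3 CPM to 129.9 and 134 CPM (log2 fold change 0.99), and *Trp53inp1*, a stress-induced partner of p53, rose by 1.09. *Pmaip1*, the gene of NOXA, rose by 0.54, while *Bax*, the pore-forming effector, rose by only 0.17 (FDR = 0.0088) and lost its call without untreated library 1, H2O2 library 1 or H2O2 library 2. In the group of repair and metabolism 9 of 15 genes rose, among them the stress sensor *Sesn2*, from 115 and 113 CPM to 214 and 208 CPM (log2 fold change 0.89), and the nucleotide excision nuclease gene *Ercc5*, from 39.3 and 38.1 CPM to 75 and 74.2 CPM (log2 fold change 0.95).

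**Figure D2:**
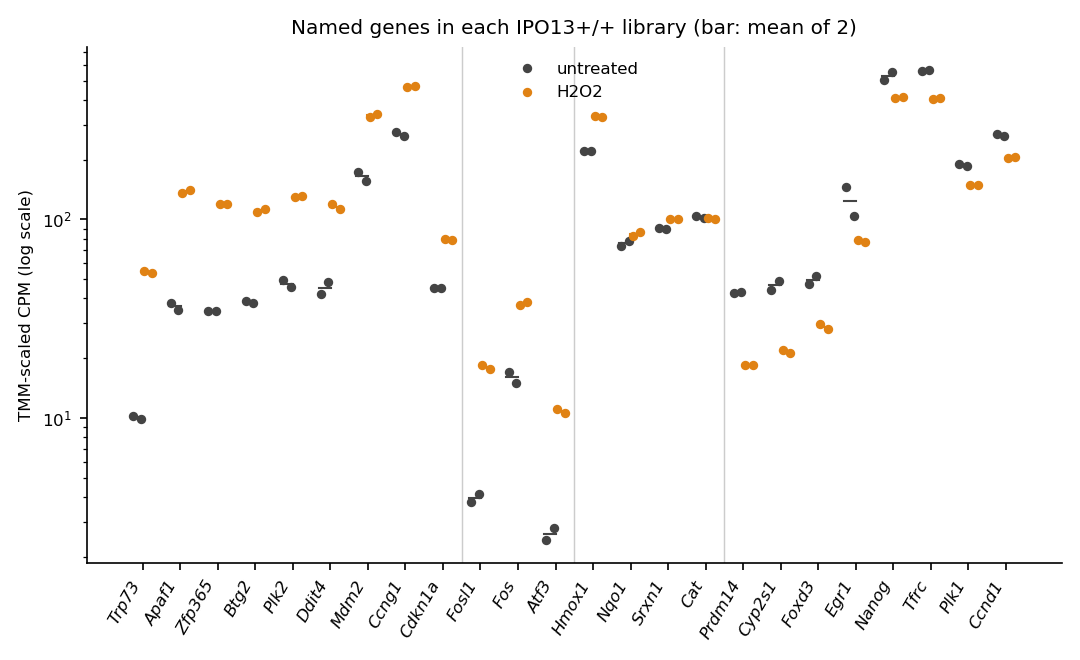
Level in CPM (vertical axis, log scale) of 24 genes (horizontal axis; grey lines part the p53 and growth arrest genes, AP-1 genes, antioxidant genes and falls) in the 2 untreated and the 2 H2O2 libraries of IPO13+/+ cells, 1 dot per library, with a bar at each group's mean. The dots of a pair lie close together for *Trp73*, *Apaf1*, *Zfp365* and *Prdm14*, all lie close together for *Cat*, and are widest apart in the untreated pair of *Egr1*.

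Motifs were looked up in the promoters of the responding genes to show the letters that known regulators bind. The 250 bases before a RefSeq transcription start (GRCm38.p6) were searched on both strands for 14 motifs. The decamer that forms either arm of a p53 element was present in 7.13% of all 32841 promoters and the full p53 element in 0.0639%. The following promoters of induced genes, chosen for display after their matches had been seen, carry the decamer in capitals; they are *Cdkn1a* (chr17:29090729-29090978, plus strand, decamers starting 73 and 51 bases before the start), *Mdm2* (chr10:117710759-117711008, minus strand, 186 bases before), *Ccng1* (chr11:40755287-40755536, minus strand, 185 bases before) and *Ddit4l* (chr3:137623422-137623671, plus strand, 90 bases before). The sequence of *Cdkn1a* is that of 1 of its 2 listed starts, and its decamers together match the full p53 element.
Cdkn1a: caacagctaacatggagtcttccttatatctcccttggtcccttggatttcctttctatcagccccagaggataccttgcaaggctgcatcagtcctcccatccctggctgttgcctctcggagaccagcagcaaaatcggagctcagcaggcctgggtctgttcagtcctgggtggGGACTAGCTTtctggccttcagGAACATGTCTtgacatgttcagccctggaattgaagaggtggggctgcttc
Mdm2: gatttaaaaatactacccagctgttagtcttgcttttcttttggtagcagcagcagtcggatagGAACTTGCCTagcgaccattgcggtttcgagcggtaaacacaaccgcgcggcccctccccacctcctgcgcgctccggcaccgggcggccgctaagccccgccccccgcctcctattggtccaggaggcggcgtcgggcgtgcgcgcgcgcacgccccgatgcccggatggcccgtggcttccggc
Ccng1: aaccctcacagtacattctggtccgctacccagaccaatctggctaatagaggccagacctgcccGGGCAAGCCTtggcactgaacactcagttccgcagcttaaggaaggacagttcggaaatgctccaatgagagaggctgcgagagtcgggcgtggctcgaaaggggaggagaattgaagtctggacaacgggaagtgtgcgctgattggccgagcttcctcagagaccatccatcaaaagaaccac
Ddit4l: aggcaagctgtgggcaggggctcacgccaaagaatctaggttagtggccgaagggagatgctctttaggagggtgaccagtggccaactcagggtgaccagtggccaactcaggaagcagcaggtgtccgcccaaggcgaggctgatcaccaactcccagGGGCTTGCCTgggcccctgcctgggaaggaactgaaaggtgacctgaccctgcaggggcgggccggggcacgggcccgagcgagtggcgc

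The cyclic AMP response element TGACGTCA, which factors of the CREB and ATF families bind, was found in 1.55% of all promoters, and the amino acid response element TGATGNAA, which ATF4 complexes bind, in 3.45%. *Btg2* (chr1:134079156-134079405, minus strand, 166 bases before the start) and *Plk2* (chr13:110394794-110395043, plus strand, 62 bases before) hold the former. *Atf3* (chr1:191183334-191183583, minus strand, 110 bases before) and *Chac1* (chr2:119350992-119351241, plus strand, 193 bases before) hold the latter, here on the opposite strand. Capitals mark these matches, and the genes were again chosen after the matches had been seen. A match gives letters in a window and is not evidence of binding.
Btg2: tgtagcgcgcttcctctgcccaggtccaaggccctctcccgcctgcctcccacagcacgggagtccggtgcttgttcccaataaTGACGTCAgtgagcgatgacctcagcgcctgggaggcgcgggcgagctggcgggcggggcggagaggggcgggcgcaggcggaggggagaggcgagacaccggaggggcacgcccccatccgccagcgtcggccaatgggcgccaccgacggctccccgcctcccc
Plk2: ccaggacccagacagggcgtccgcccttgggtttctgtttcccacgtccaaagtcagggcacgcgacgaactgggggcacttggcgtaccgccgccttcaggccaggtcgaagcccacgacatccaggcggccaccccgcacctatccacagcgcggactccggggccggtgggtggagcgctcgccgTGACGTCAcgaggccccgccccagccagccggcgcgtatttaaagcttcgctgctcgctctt
Atf3: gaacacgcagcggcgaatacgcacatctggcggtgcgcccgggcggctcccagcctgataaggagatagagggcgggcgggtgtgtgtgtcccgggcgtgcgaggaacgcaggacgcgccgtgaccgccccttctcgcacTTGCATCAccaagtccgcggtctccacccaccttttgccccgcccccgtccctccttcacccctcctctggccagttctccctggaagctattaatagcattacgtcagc
Chac1: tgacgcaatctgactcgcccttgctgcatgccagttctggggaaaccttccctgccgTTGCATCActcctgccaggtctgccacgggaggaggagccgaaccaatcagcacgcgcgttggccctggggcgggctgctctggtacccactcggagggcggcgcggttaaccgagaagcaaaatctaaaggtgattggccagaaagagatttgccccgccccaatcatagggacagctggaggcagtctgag

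Members of the AP-1 family, which bind DNA as FOS-JUN or ATF dimers, rose together, with 11 of 14 tested genes higher (78.6%, against 11.5% of all genes), none lower and a median log2 fold change of 0.39, and 5 of the rises exceeded 1.2-fold in its test. All 4 FOS genes rose. *Fosl1* (chr19:5447547-5455946, plus strand), coding for FRA1, was at 3.79 and 4.15 CPM without and 18.6 and 17.6 CPM with treatment (log2 fold change 2.19, SE 0.07, FDR = 2.8e-18). *Fos* went from 17.1 and 14.9 CPM to 37.1 and 38.2 CPM (log2 fold change 1.24, SE 0.06, FDR = 1.4e-14). *Jun*, its main partner, went from 26.9 and 24.9 CPM to 45.7 and 45.3 CPM (log2 fold change 0.81), and *Junb* rose by 0.38. *Atf3*, a stress-induced repressor of the same family, went from 2.43 and 2.78 CPM to 11.1 and 10.6 CPM (log2 fold change 2.05, FDR = 2.7e-16). Both treated libraries were above both untreated ones in these 5 genes, and 70.1% of all well-expressed genes had groups that did not overlap.

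Other immediate early genes respond to growth factors and stress without new protein synthesis. Of these, 18 of 36 were higher (50%, against 11.5% of all and 13.4% of well-expressed genes). The 8 lower genes (22.2%, near the 25.2% of well-expressed genes) were fewer without H2O2 library 2. *Btg2* and *Plk2*, which the p53 list also holds, had the largest rises, and the transcription repressor gene *Btg1* rose by 0.73. *Egr1*, a zinc finger factor usually induced by the same signals, was lower at 78.5 and 76.9 CPM than at the untreated 145 and 104 CPM (log2 fold change -0.68, SE 0.10, FDR = 7.7e-06). Its untreated libraries were far apart, and both treated libraries lay below both. The connective tissue growth factor gene *Ctgf* fell by 0.49, and *Ier2*, *Ier3* and *Myc* were not called (log2 fold changes 0.01, -0.2 and -0.01).

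The MAP kinase feedback list holds phosphatases and receptor pathway inhibitors, which damp the signal, and ERK target factors. Of its 23 genes 7 were higher (30.4%, against 11.5% of all and 13.4% of well-expressed genes). These were 4 of 11 phosphatases and 3 of 6 inhibitors. The falls were 6 (26.1%, near the 25.2% of well-expressed genes), and the sign of the median depended on the setting. Of these falls 4 were among the 6 ERK target factors, 2 among the inhibitors and 0 among the phosphatases. *Dusp1*, a phosphatase of JNK and p38, went from 122 and 124 CPM to 190.0 and 189.7 CPM (log2 fold change 0.63), and the low-level phosphatase gene *Dusp2* went from 34 and 27 counts to 136 and 130 counts (log2 fold change 2.12). *Dusp6*, the ERK phosphatase gene, was not called (log2 fold change 0.04), and the ERK-responsive factor gene *Etv5* fell by 0.24. The shares on the NF-kappaB list, 13.8% higher and 17.2% lower, were near the 11.5% and 13.8% of all genes. On the NF-kappaB list 4 of 29 genes were higher and 5 lower, the latter 3 without untreated library 1 and 2 without H2O2 library 1, with rises of 0.45 for the adhesion molecule gene *Icam1* and 0.26 for the inhibitor gene *Nfkbia*, and a fall of 0.61 for the atypical inhibitor *Bcl3*.

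Of 35 tested NRF2 targets, the main antioxidant genes, 9 rose (25.7%) and 2 fell, with a median log2 fold change of 0.05. By comparison, 11.5% of all and 13.4% of well-expressed genes rose. The count of rises was 13 with library totals and 2 when the change had to exceed 1.2-fold. It was also smaller without H2O2 library 1 or 2. Among the rises were 3 of the 4 regulators on the list. *Hmox1*, which codes for the haem-degrading enzyme haem oxygenase 1, was at 222 and 222 CPM without and 331 and 327 CPM with treatment (log2 fold change 0.57, SE 0.04, FDR = 4.3e-12). *Ephx1*, a gene of epoxide hydrolysis, went from 12 and 11.7 CPM to 22.3 and 22.4 CPM (log2 fold change 0.92), and the gene of NRF2, *Nfe2l2*, rose by 0.31. *Nqo1*, the quinone reductase gene often used as a readout of NRF2, was at 73.2 and 78.3 CPM and 82.8 and 86.6 CPM (log2 fold change 0.16, FDR = 0.012), a call lost without untreated library 1 or H2O2 library 2. *Srxn1*, the gene of the sulfiredoxin that repairs peroxiredoxins, was at 90.8 and 89.2 CPM and 100.3 and 101 CPM (log2 fold change 0.16, FDR = 0.0054), a call lost without H2O2 library 1 or 2. None of the 10 genes of glutathione synthesis and use was called, including *Gclc* and *Gclm*, which code for the rate-limiting ligase (log2 fold changes 0.11 and 0.07).

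On the list of peroxide and superoxide removal, which includes thiol repair, 4 of 27 genes were higher (14.8%, near the 13.4% of well-expressed genes). The 2 lower genes (7.41%, below 25.2%) were fewer without H2O2 library 1 or 2. Of the 13 thiol repair genes 3 rose and 2 fell. *Cat*, the gene of catalase, was at 104 and 102 CPM without and 102 and 100.5 CPM with treatment (log2 fold change -0.02, SE 0.04, FDR = 0.75). No superoxide dismutase and no peroxiredoxin on the list was called. *Gpx3*, which codes for a secreted glutathione peroxidase, was the only 1 of 5 glutathione peroxidases called, at 11.2 and 12 CPM and 19.2 and 19 CPM (log2 fold change 0.72). *Txnip*, the inhibitor of thioredoxin, rose by 0.28, and *Msrb1*, a methionine sulfoxide reductase gene, by 0.37.

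On the heat shock list 8 of 33 genes were higher (24.2%, against 11.5% of all and 13.4% of well-expressed genes). Another 8 were lower (24.2%, near the 25.2% of well-expressed genes). Without H2O2 library 1 these counts were 5 and 3. With library totals 6 genes of the list were lower, and with the 4 IPO13+/+ libraries alone 2 were. *Hspa1a*, an inducible HSP70 gene, rose by 1.01 and its near-identical copy *Hspa1b* by 0.52, but reads of these copies are hard to assign and their separate values are uncertain. The small heat shock protein gene *Cryab* rose from 2.59 and 2.4 CPM to 8.54 and 7.93 CPM (log2 fold change 1.72) and the constitutive *Hspa8* fell by 0.14. *Hsf1* and the HSP90 gene *Hsp90aa1* were not called (log2 fold changes 0.02 and -0.01).

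On the list of ATF4 targets, the genes of the integrated stress response, 17 of 45 genes rose (37.8%, against 11.5% of all and 13.4% of well-expressed genes) and 1 fell. The rises were those of 8 of 10 regulators, 6 of 9 stress outputs, 2 of 16 genes of amino acid transport and synthesis and 1 of 10 tRNA synthetase genes. *Chac1*, a glutathione-degrading enzyme gene, went from 2.44 and 2.97 CPM to 6.83 and 6.24 CPM (log2 fold change 1.27, FDR = 6e-11). *Ddit3*, coding for the proapoptotic factor CHOP, went from 4.25 and 4.04 CPM to 8.38 and 8.23 CPM (log2 fold change 1.00), and *Ddit4*, an mTOR inhibitor that p53 also induces, from 42 and 48.6 CPM to 119 and 112 CPM (log2 fold change 1.35). *Asns*, the asparagine synthetase gene, was not called (log2 fold change -0.07). When any 1 library was left out, 12 to 15 genes of the list were higher.

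The unfolded protein response of the endoplasmic reticulum had 4 of 34 genes higher (2 without untreated library 2, H2O2 library 1 or H2O2 library 2) and 12 lower (35.3%, against 25.2% of well-expressed genes), although only 3 were lower with library totals, with the 4 IPO13+/+ libraries alone, without H2O2 library 1 or without H2O2 library 2, and 7 without untreated library 2. *Xbp1*, the factor of its IRE1 branch, fell by 0.40, *Manf* by 0.31 and *Hspa5*, the gene of the chaperone BiP, by 0.13, a call lost without untreated library 2 or either H2O2 library and with library totals. *Herpud1*, a gene of degradation that the ATF4 list shares, rose by 0.35. The share of higher genes of the unfolded protein response, 11.8%, was near the 11.5% of all and 13.4% of well-expressed genes.

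Repressed genes with a large change included several of pluripotency and the early embryo. *Prdm14* (chr1:13113457-13127163, minus strand), coding for a repressor that guards the naive state and germ cell fate, was at 42.7 and 43.2 CPM without and 18.4 and 18.4 CPM with treatment. Its fall, a log2 fold change of -1.22 (SE 0.05, FDR = 7.4e-16), was the largest of any well-expressed gene. *Foxd3*, a forkhead factor of the pluripotent epiblast, fell from 47.5 and 51.9 CPM to 29.6 and 28.1 CPM (log2 fold change -0.78, SE 0.05, FDR = 2.5e-12), and *Zic2*, an epiblast and neural zinc finger factor, from 18.3 and 17.8 CPM to 10.9 and 9.88 CPM (log2 fold change -0.8). *Nanog* (chr6:122707489-122714633, plus strand) went from 502 and 553 CPM to 407 and 416 CPM (log2 fold change -0.36, SE 0.04, FDR = 1.9e-07). *Pou5f1*, the gene of OCT4, and *Esrrb* were not called (log2 fold changes 0.01 and -0.01), and *Sox2* fell by 0.12 (FDR = 0.018). The call of *Sox2* was lost without H2O2 library 1 or 2, with library totals and with the 4 IPO13+/+ libraries alone.

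On the naive pluripotency list 25 of 38 genes fell (65.8%, against 13.8% of all genes and 25.2% of well-expressed genes) and 3 rose, with a median log2 fold change of -0.15. The count of falls was lower without H2O2 library 1 (18) or H2O2 library 2 (17), with the 4 IPO13+/+ libraries alone (15) and with library totals (18), and 5 exceeded 1.2-fold. *Lin28a*, an RNA-binding protein gene, fell from 390.4 and 390.5 CPM to 300.2 and 305 CPM (log2 fold change -0.37) and *Fbxo15* by 0.42. The rises were of *Klf2*, a naive factor (log2 fold change 0.14, FDR = 0.016, lost without untreated library 2 or H2O2 library 1), the LIF feedback inhibitor *Socs3* (0.38) and the receptor gene *Fgfr1* (0.31). *Lif* itself, at a low level, went from 5.68 and 5.78 CPM to 11.1 and 10.9 CPM (log2 fold change 0.94).

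Genes of the primed state were mostly lower or not called. For comparison, 13.8% of all genes and 25.2% of well-expressed genes were lower. Of the 8 well-expressed genes of primed pluripotency and the early germ layers 7 were lower. Higher and lower were 4.76% and 19% of the primitive endoderm, 16.7% and 11.1% of the trophectoderm, and 0% and 10% of the 2-cell-like genes. Of 29 tested genes of primed pluripotency and the early germ layers 14 fell (48.3%) and 2 rose, and 12 to 14 were lower when any 1 library was omitted. The summed mesoderm and neural markers given above were also lower after treatment, and their part was not tested. *Eomes*, a T-box factor of mesendoderm and trophectoderm, fell by 0.56, and the low-level genes *Fgf5* and *T* were not called. Among WNT, NODAL and BMP targets 8 of 26 fell (30.8%) and 4 rose (15.4%, against 11.5% of all genes). With the 4 IPO13+/+ libraries alone 6 fell and 3 rose. *Lef1*, a WNT effector, went from 6.54 and 7.44 CPM to 3.4 and 3.28 CPM (log2 fold change -1.07), *Bmp4* from 45.5 and 45.7 CPM to 29.97 and 29.8 CPM (log2 fold change -0.61), and the BMP targets moved apart, with *Id2* higher by 0.84, *Id1* by 0.32 and *Id3* lower by 0.63. Primitive endoderm genes were 1 higher and 4 lower of 21, trophectoderm genes 3 higher and 2 lower of 18 (7 lower and 5 higher, respectively, without untreated library 2, and 2 and 1 lower without H2O2 library 2), and genes of the 2-cell-like state 0 higher and 2 lower of 20, a state in which *Zscan4* copies share reads and are uncertain.

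Mitotic genes had the largest share of falls of the 38 lists. Of 47 tested genes of G2/M and mitosis 36 fell (76.6%, against 25.2% of well-expressed genes) and 2 rose, with a median log2 fold change of -0.18. All settings kept the median below 0 (-0.19 to -0.14), but the count of falls was 24 without H2O2 library 1, 25 without H2O2 library 2, 23 with the 4 IPO13+/+ libraries alone and 27 with library totals, and none exceeded 1.2-fold in its test. *Plk1* (chr7:122159439-122169873, plus strand), the kinase gene of mitotic entry, went from 189.5 and 185 CPM to 149 and 149 CPM (log2 fold change -0.33, SE 0.04, FDR = 4e-07). *Kif23*, a kinesin gene of cytokinesis, went from 176 and 176 CPM to 138 and 140.5 CPM (log2 fold change -0.34). *Ccnb1*, the mitotic cyclin gene, and its kinase *Cdk1* each fell by 0.20. The 2 rises were *Gadd45a* and *Gtse1*, which the p53 list also holds (log2 fold changes 0.29 and 0.48).

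Of 39 genes of G1/S and DNA replication 9 were lower (23.1%, near the 25.2% of well-expressed genes) and 1 higher. The falls included 6 of 12 cyclins, kinases and E2F factors and 2 of 14 replication licensing genes. *Ccnd1*, the cyclin D1 gene, went from 268 and 262 CPM to 204 and 205 CPM (log2 fold change -0.38, FDR = 2.1e-08) and *Ccne1* fell by 0.31, whereas the DNA clamp gene *Pcna* was not called. Of 57 genes of DNA repair and damage signalling 8 fell (14%, below the 25.2% of well-expressed genes) and 3 rose (5.26%, below 13.4%). With library totals 6 fell and 7 rose, and with the 4 IPO13+/+ libraries alone 5 fell and 2 rose. Leaving out single libraries also changed these counts. The rises included the single-strand break scaffold *Xrcc1* (0.34) and the glycosylase gene *Nthl1* (0.25). The call of *Nthl1* was lost without H2O2 library 1, H2O2 library 2 or untreated library 1. Clustered histone genes were 6 higher (15.8%, against 11.5% of all genes) and 0 lower of 38, and none of them was well expressed. Their main transcripts lack poly(A) tails and their copies share sequence, so these counts are uncertain.

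Genes of growth and transport also fell in small steps. On the nuclear transport list 24 of 49 genes were lower (49%, against 25.2% of well-expressed genes) and 3 higher, with 5 of 7 exportin genes and 8 of 16 importin genes among the falls. *Xpo1*, the main export receptor gene, fell by 0.21 and *Kpnb1*, the gene of importin beta, by 0.17. The count of lower genes was 9 without H2O2 library 1, 13 without H2O2 library 2, 10 with the 4 IPO13+/+ libraries alone, 16 with library totals and 0 at a limit of 1.2-fold. Ribosome biogenesis had 25 of 54 genes lower (46.3%, against the same 25.2%) and 1 higher, of which 13 were among 21 genes of large subunit assembly, and the corresponding counts were 9, 16, 7, 14 and 0. The rDNA transcription factor gene *Ubtf* fell by 0.20 and the small subunit factor gene *Utp20* rose by 0.25.

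On the list of hypoxia and glycolysis 15 of 34 genes fell (44.1%, against 25.2% of well-expressed genes) and 1 rose, with 10 to 16 falls when any 1 library was left out and 8 with the 4 IPO13+/+ libraries alone. The falls were those of 4 of 6 genes of HIF control, 5 of 12 HIF outputs and 6 of 16 glycolysis genes. *Egln3*, an oxygen-sensing prolyl hydroxylase gene, went from 36.9 and 50.2 CPM to 27.4 and 26.5 CPM (log2 fold change -0.69), and its untreated libraries differed more than its treated ones. *Epas1*, the gene of HIF-2alpha, fell by 0.39 and *Pdk1*, the kinase that restrains pyruvate dehydrogenase, went from 133 and 143 CPM to 104 and 104 CPM (log2 fold change -0.41), whereas the lactate dehydrogenase gene *Ldha* was not called (0.01). Among genes of sterol and fatty acid synthesis 14 of 43 fell (32.6%, against 25.2% of well-expressed genes) and 2 rose (4.65%). The falls included *Sqle*, a sterol synthesis enzyme gene (by 0.25). The count of falls was 4 without H2O2 library 1, 7 without H2O2 library 2, 9 without untreated library 1 and 5 with library totals.

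The ribosomal and respiratory genes had no common direction, and few were called. Cytosolic ribosomal protein genes had 0 higher and 1 lower of 79 (1.27%), and nuclear-encoded genes of oxidative phosphorylation 0 higher and 1 lower of 74 (1.35%). By comparison, 13.4% of well-expressed genes were higher and 25.2% lower. Each list had a median log2 fold change of -0.02 whose sign depended on the setting. Without untreated library 2 there were 10 and 8 rises in the respective lists, and without untreated library 1 there were 8 and 7 falls, so the direction of the calls depended on which untreated library was in the fit. Proteasome genes had 7 of 38 lower (18.4%, below the 25.2% of well-expressed genes) and none higher. The count of lower genes was 4 with library totals and 2 with the 4 IPO13+/+ libraries alone. It was also smaller without H2O2 library 1 or 2 and larger without untreated library 1. Genes of SR proteins and splicing kinases had 6 of 29 lower (20.7%, also below 25.2%) and 1 higher. With library totals 2 were lower, and with the 4 IPO13+/+ libraries alone 1 was. Fewer were lower without H2O2 library 1 and more without untreated library 2.

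**Figure D3:**
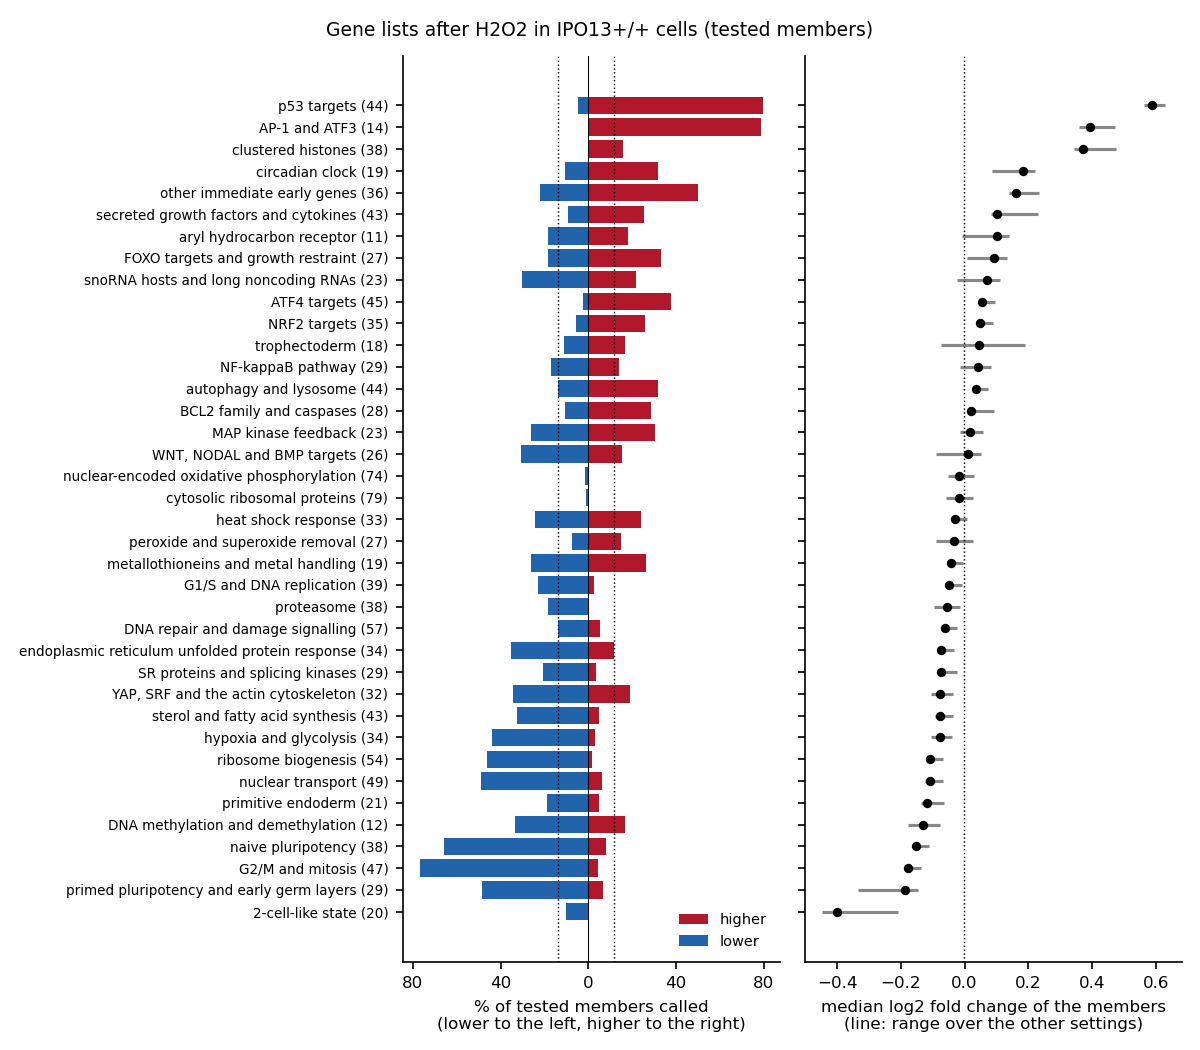
For each of the 38 gene lists, the left panel gives the percent of its tested genes that were higher or lower at FDR under 0.05, with dotted lines at 11.5% and 13.8% for all genes, and the right panel gives the median log2 fold change with a line over its range across settings. The p53 and AP-1 lists have the largest shares of rises, and the G2/M and naive pluripotency lists have the largest shares of falls. The lines do not show the well-expressed genes, of which 13.4% were higher and 25.2% lower, with a median log2 fold change of -0.049.

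Some further lists held clear rises of single members. Of all genes 11.5% were higher and 13.8% lower, and of well-expressed genes 13.4% and 25.2%. The corresponding shares were 31.6% and 10.5% for clock genes, 31.8% and 13.6% for autophagy and lysosome, and 33.3% and 18.5% for FOXO targets. They were 28.6% and 10.7% for the BCL2 family and caspases and 25.6% and 9.3% for secreted factors. Long noncoding RNAs and snoRNA hosts had 21.7% and 30.4%. Of 19 circadian clock genes 6 rose and 2 fell (none fell without H2O2 library 1), with *Bhlhe41* at a log2 fold change of 1.76, its relative *Bhlhe40* at 0.66 and *Tef*, an output factor, going from 38.8 and 39.3 CPM to 77 and 75.3 CPM (0.96). On the autophagy and lysosome list 14 of 44 rose and 6 fell (8 and 3 without H2O2 library 1, 9 and 2 without H2O2 library 2), and 7 of 15 lysosome genes were among the rises, with *Ctsd*, the cathepsin D gene, higher by 0.47 and *Sqstm1*, the autophagy receptor gene, by 0.27. FOXO targets and growth restraint had 9 higher and 5 lower of 27 (2 lower without H2O2 library 1, 3 without H2O2 library 2), led by *Gadd45g* (91 and 112 counts to 388 and 376 counts, log2 fold change 1.91) and with *Foxo3* higher by 0.59. The BCL2 family and caspases had 8 higher (5 without H2O2 library 1) and 3 lower (0 without H2O2 library 1 or 2) of 28, and secreted factors 11 higher and 4 lower of 43. Long noncoding RNAs and snoRNA hosts diverged, with *Neat1*, the RNA of paraspeckles, going from 53.9 and 57.6 CPM to 106 and 109 CPM (log2 fold change 0.95) and the snoRNA host *Snhg3* from 44.8 and 44.7 CPM to 30.4 and 30.2 CPM (-0.56), and 5 higher and 7 lower of 23. With library totals 5 of them were lower, and with the 4 IPO13+/+ libraries alone 4 were.

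Further lists held rises and falls. Their shares of higher and lower genes were 26.3% and 26.3% for metal handling and 18.8% and 34.4% for YAP, SRF and actin genes. They were 16.7% and 33.3% for DNA methylation and demethylation and 18.2% and 18.2% for the aryl hydrocarbon receptor list. Of well-expressed genes 13.4% were higher and 25.2% lower, and of all genes 11.5% and 13.8%. Metal handling had 5 higher (3 without untreated library 2 or H2O2 library 1) and 5 lower (3 without H2O2 library 2) of 19, with the metallothionein gene *Mt1* higher by 0.2, the zinc importer *Slc39a10* going from 75 and 74 CPM to 52.6 and 52.8 CPM (-0.5), and the transferrin receptor gene *Tfrc*, whose transcript is degraded when iron is plentiful, from 558 and 563 CPM to 403 and 408 CPM (log2 fold change -0.47, FDR = 4.6e-10). YAP, SRF and actin genes had 6 higher and 11 lower of 32 (5 lower without H2O2 library 2), with *Ctgf* going from 131 and 124 CPM to 90.3 and 91.9 CPM and *Amotl1*, a YAP-binding protein gene, higher by 0.8. Genes of DNA methylation and demethylation had 2 higher and 4 lower of 12, with *Dnmt3b* lower by 0.24 and *Tet3* higher by 0.32. On the aryl hydrocarbon receptor list, with 2 higher (0 without H2O2 library 2) and 2 lower of 11, *Cyp2s1*, a cytochrome P450 gene, fell from 44.2 and 48.9 CPM to 22.1 and 21.2 CPM (log2 fold change -1.1, SE 0.06, FDR = 4.8e-14), one of the 2 well-expressed falls of at least 2-fold.

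Rises and falls of well-expressed genes differed in size and level. The called rises had a median log2 fold change of 0.29 (quartiles 0.20 and 0.50) and a median level of 34.5 CPM, and 218 of 1149 (19%) reached 1.5-fold. The called falls had a median of -0.19 (quartiles -0.25 and -0.15) and a median level of 62 CPM, and 18 of 2166 (0.831%) reached 1.5-fold. A change of less than 1.2-fold made up 43.3% of the rises and 79.3% of the falls. All 3243 called genes with a change below 2-fold had groups that did not overlap, a condition that 70.1% of all well-expressed genes met.

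**Figure D4:**
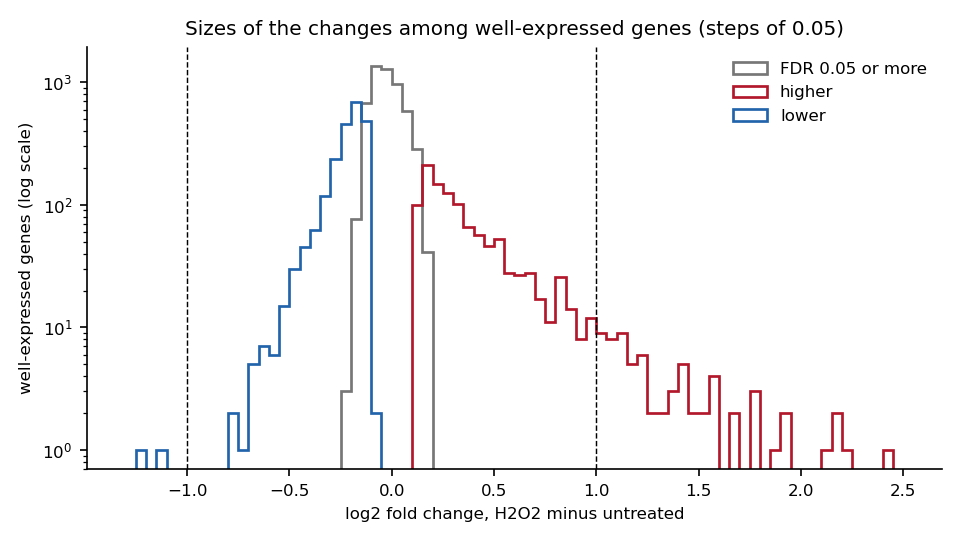
Number of well-expressed genes by log2 fold change in steps of 0.05 (horizontal axis), as step lines for genes higher, lower or not called at FDR under 0.05, on a log axis. The falls crowd between -0.25 and -0.15 while the rises trail out to 2.43.

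The small changes moved with spliced length and GC content, along which libraries of the same group also differed. With well-expressed genes in 4 equal groups by spliced length, the share of lower genes went from 17.9% in the shortest to 31% in the longest, and the median log2 difference of untreated library 2 minus library 1 went from 0.06 to -0.10, whereas that of the 2 treated libraries stayed between -0.003 and 0.003. The median difference of H2O2 library 1 minus untreated library 1 went from -0.006 to -0.11 and that of library 2 from -0.07 to -0.02. In 4 groups by increasing GC content, the share of higher genes went from 6.66% to 21.3% and that of lower genes from 34.8% to 18%. The median difference of the untreated pair went from -0.02 to 0.02 along GC content and that of the treated pair from 0.03 to -0.03. The part of length or GC content in the small changes was not tested.

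**Figure D5:**
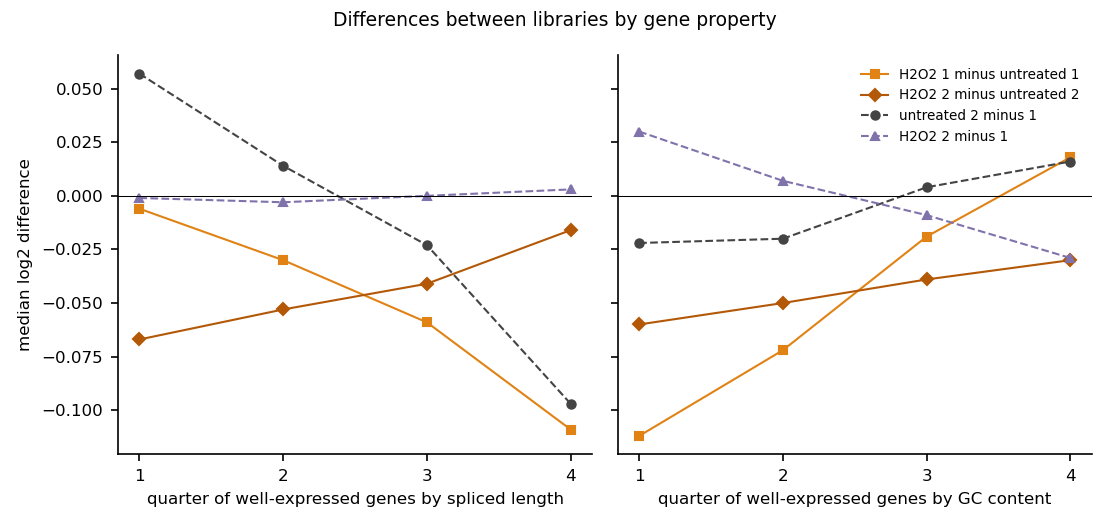
Median log2 difference between pairs of IPO13+/+ libraries (vertical axis) in 4 equal groups of well-expressed genes by increasing spliced length (left) and GC content (right), 1 line per pair. The untreated pair falls from 0.06 to -0.10 along length and the treated pair stays flat.

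Genes at low levels made up most of the 2-fold changes. Of the 535 rises, 465 (86.9%) were below 10 CPM on average, and 100 (18.7%) had fewer than 10 counts summed over the untreated libraries. *Wnt8b*, a WNT ligand gene, had 1 and 1 counts without and 20 and 35 counts with treatment, and *Chrm1*, a muscarinic receptor gene, had 1 and 0 and 16 and 13. *Neurod1*, a neuronal differentiation factor gene, rose by 1.79 and *Map3k14*, the gene of the NF-kappaB inducing kinase, by 1.17 on the log2 scale. Of the 29 falls, 27 were below 10 CPM, among them *En1*, a homeobox gene, with 43 and 56 counts without and 19 and 19 counts with treatment (log2 fold change -1.38).

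Set beside the same treatment of IPO13-/- cells, most 2-fold changes had no detected difference in size. Of the 564 genes with a 2-fold change in IPO13+/+ cells, 37 (6.56%, against 2.71% of all tested genes) had an interaction of genotype and treatment at FDR under 0.05, and 18 of these changed more in IPO13+/+ cells. *Fos* rose less in IPO13-/- cells, from 12.2 and 10.4 CPM to 17.4 and 17.3 CPM, and the IPO13+/+ minus IPO13-/- difference of log2 fold changes was 0.62 (SE 0.10, FDR = 0.00021). *Cdkn1a* started lower there, at 19.99 and 22.2 CPM, and reached 52.1 and 52 CPM, a difference of -0.50 (SE 0.07, FDR = 7.1e-05). *Hmox1* went from 121 and 125 CPM to 250.3 and 248 CPM, a difference of -0.45 (SE 0.05, FDR = 9.6e-06). The count of 37 depended on the method and on the treated libraries, since it was 17 without H2O2 library 1 and 18 without H2O2 library 2 of IPO13+/+ cells.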

How the data were processed

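The processing notes of the submitters name the build mm10 and the tools bcl2fastq, STAR 2.3.1 (an aligner), HTSeq (a read counter) and limma. From paired-end reads the authors deposited for each library a raw count and a CPM value for 23420 gene symbols. The annotation and the strand setting of the counting are not given in the sources used here. Only the counts were tested; the deposited CPM values, each count divided by its library total, were checked against them. Groups and replicate numbers came from the labels.

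Tested were the 19424 genes that any library counted at least 1 time. They were scaled by TMM factors and fitted in R 4.3.3 with edgeR 4.0.16 (quasi-likelihood F test, Benjamini-Hochberg adjustment), all 8 libraries in 4 groups sharing 1 estimate of the spread. The contrast was H2O2 minus untreated in IPO13+/+ cells, and the interaction was that contrast minus its IPO13-/- counterpart. CPM values in the text use TMM library sizes. Standard errors follow from the log2 fold change and the F statistic. Alternatives used limma 3.58.1 (voom), DESeq2 1.42.0, other scalings, filters, sample sets and limits (glmTreat for changes over 1.2-fold). The fit was also run on simulated data with the same spread in all groups. That run cannot show how the fit behaves when the spread differs by group. An exact permutation test of 2 against 2 libraries cannot go below p = 0.333 and was not used.

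The genes, gene lists and comparisons were chosen with earlier results of these data known. Named genes are the 12 largest rises and falls of well-expressed genes without overlap, the 5 largest of the remaining genes in which a group's libraries each held 10 counts or more, the 10 of smallest FDR in each direction among well-expressed genes changed below 2-fold, and in each of the 38 lists its key members and the 3 of smallest FDR in each direction. Not every such gene is printed, and some results are not reported here. Lists are described by counts and medians, with no set test. Positions are those of GENCODE M21 (GRCm38), matched by symbol. Promoter sequences are from RefSeq (GRCm38.p6). The motifs searched were TGANTCA (AP-1), TGACGTCA (cyclic AMP response), TGANNNNGC (antioxidant response), TGATGNAA (amino acid response), TTTGAA (cell cycle homology), CACGTG (E-box), CCAAT (the box bound by NF-Y), TATAAA (bound by the TATA-binding protein), GGGCGG (GC box) and ACGTG (hypoxia response), and by name the heat shock element, p53 decamer, p53 element and serum response element. The p53 element contains the decamer, and the E-box contains the hypoxia motif.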

Additional observations from a re-analysis of the deposited data

Results flagged for a closer look

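The genes below are those described above whose response to H2O2 differed between IPO13+/+ and IPO13-/- cells by the interaction term of edgeR's quasi-likelihood test at FDR under 0.05. Each value is the log2 fold change in IPO13+/+ minus that in IPO13-/- cells, so a negative value means a smaller rise or a larger fall in IPO13+/+ cells. Among p53 targets and genes of growth arrest, the difference was negative for *Trp73* (-0.55, FDR = 0.0003), *Cdkn1a* (-0.50, FDR = 7.1e-05), *Mdm2* (-0.28, FDR = 0.013), *Bbc3* (-0.28, FDR = 0.038), *Perp* (-0.26, FDR = 0.033), *Trp53inp1* (-0.28, FDR = 0.048), *Btg1* (-0.53, FDR = 7.3e-05), *Btg2* (-0.25, FDR = 0.04), *Plk2* (-0.40, FDR = 0.00055), *Gadd45g* (-0.73, FDR = 0.008) and *Ddit4l* (-0.42, FDR = 0.0079). Among AP-1, ATF4 and heat shock genes it was positive for *Fos* (0.62, FDR = 0.00021), *Jun* (0.40, FDR = 0.0023), *Chac1* (0.90, FDR = 6.7e-05), *Herpud1* (0.37, FDR = 0.014) and *Hspa1b* (0.80, FDR = 0.0001). Among genes of antioxidant defence, metal handling, NF-kappaB and lysosomes it was negative for *Hmox1* (-0.45, FDR = 9.6e-06), *Nfe2l2* (-0.25, FDR = 0.036), *Sqstm1* (-0.58, FDR = 5.3e-07), *Mt1* (-0.29, FDR = 0.0069), *Nfkbia* (-0.52, FDR = 3.7e-05), *Icam1* (-0.29, FDR = 0.012) and *Ctsd* (-0.30, FDR = 0.0018). Among clock and BMP genes it was negative for *Bhlhe40* (-0.77, FDR = 2.2e-08), *Bhlhe41* (-0.97, FDR = 1.2e-05), *Id1* (-0.71, FDR = 5.3e-06), *Id2* (-0.73, FDR = 1.4e-07) and *Bmp4* (-0.47, FDR = 5.1e-05). Among genes of pluripotency and DNA demethylation it was positive for *Prdm14* (0.49, FDR = 0.00034) and *Tet3* (0.47, FDR = 0.0049). It was negative for *Klf2* (-0.27, FDR = 0.014) and *Esrrb* (-0.21, FDR = 0.02). Among genes of mitosis and sterol handling it was negative for *Ccnb1* (-0.22, FDR = 0.031) and *Sqle* (-0.31, FDR = 0.0032). *Hspa1b* shares reads with its near-identical copy and its value is uncertain. These calls are those of the main fit, and which of them hold in other settings is not given here. Among 2-fold changes the 37 interactions of the main fit became 15 with voom and 19 with DESeq2. No explanation of these differences was tested.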

How the results depend on the processing

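The count of 2-fold rises (535) stayed within 1.5 times of that value in every setting, while the counts of small falls and of interactions depended most on the setting; the cause was not tested beyond what each setting changes. Where edgeR on all 8 libraries gave 2679 lower genes, 2164 lower well-expressed genes under 2-fold, 29 2-fold falls and 37 interactions among 2-fold changes, library totals gave 1731 lower genes and 1352 among well-expressed genes. voom gave 66 2-fold falls and 15 interactions, and DESeq2 gave 1743 lower genes, 14 2-fold falls and 19 interactions. The 4 IPO13+/+ libraries alone gave 1229, 981 and 17 for lower genes, lower well-expressed genes and 2-fold falls. Leaving out 1 library in turn gave 1365 to 2691 lower genes (lowest without H2O2 library 1), 1095 to 2260 lower well-expressed genes under 2-fold and 17 to 45 interactions. Thinning to equal depth gave 14 interactions. A limit of 1.2-fold gave 975 higher and 239 lower genes, 330 and 121 among well-expressed genes, and 16 2-fold falls, and an FDR limit of 0.01 gave 1648 lower genes and 15 2-fold falls. Replicate numbers were not taken to pair the libraries (over 8620 genes their deviations from the group means correlated at -0.02 between the IPO13+/+ groups, and at -0.09 to 0.64 over the 6 pairs of the 4 groups, 3 of them over 0.3); with that number added to the fit as a block there were 2506 higher and 3296 lower genes and 61 interactions. The median log2 fold change kept its sign over all settings in 28 of 38 lists and changed it in 10. Of 4632 repeats over the 331 named genes, 4191 kept their direction and side of the threshold, 390 lost the call, 51 gained one and none reversed, and 117 of 254 called genes were called in every setting.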
